A study of Mus musculus with 8 samples.

Results

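The T-box genes Tbx2, Tbx3, Tbx4, Tbx5, Tbx15, Tbx18 and Tbx20 and the homeobox gene Pitx1 were followed in mouse embryonic fibroblasts on 8 Affymetrix arrays. Members were taken by symbol. Every probe set whose platform annotation names exactly 1 gene, and that gene is 1 of these 8, was included. This gave 19 probe sets of the 45037 tested, and all 8 genes of the 18193 with such a probe set were represented. The number of probe sets was 5 for Tbx3, 3 for Tbx20, 2 each for Tbx4, Tbx5, Tbx15, Tbx18 and Pitx1, and 1 for Tbx2.

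All cells were C57BL/6 embryonic fibroblasts without Stat5, into which a mutant STAT5 had been put back by a retroviral vector. EA cells carried the form that the labels describe as changed from EE to AA in a binding domain, and YF cells carried Y694F, a change at the phosphorylation site. Each was sampled after 120 minutes of growth hormone and without stimulation, which gave 4 groups of 2 arrays: EA with hormone, EA, YF with hormone and YF. Both arrays of each group are given as biological duplicates, with no statement on whether they came from separate infections, so the p-values measure the spread between these arrays. No group carries normal STAT5 or an empty vector. EA and YF cells are separately infected populations, and whether they came from the same embryos or the same part of the embryo is not stated in the labels. The mutant and the population of cells therefore cannot be told apart in any EA against YF difference.

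T-box proteins bind DNA through a shared domain and set the identity of regions and organs in the embryo. Tbx2, Tbx3, Tbx4 and Tbx5 form a subfamily that lies in 2 linked pairs, Tbx2 beside Tbx4 and Tbx3 beside Tbx5. Tbx5 is known for the forelimb and heart, Tbx4 for the hindlimb and lung mesenchyme, and Pitx1 for hindlimb identity, where it acts upstream of Tbx4. Tbx15, Tbx18 and Tbx20 belong to another subfamily with roles in skin and skeleton, in the epicardium and ureter, and in heart muscle. Fibroblasts taken from an embryo can keep the expression of such positional genes in culture.

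Values are the deposited log2 expression per probe set, and a difference in them is a log2 difference. Most values crowded into a low group near the bottom of the scale, and 24773 of the 45037 probe sets (55%) averaged under 4, the bound used here for the low group. The scale inside that group is unknown, so a difference with a side there has an uncertain size, and its standard error (SE) and p may be too small. Where a gene had several probe sets, the one with the highest mean over the arrays is called the brightest. Differences were tested with limma, a difference with a Benjamini-Hochberg adjusted p under 0.05 over all 45037 probe sets was called passing, and n is 2 arrays per group.

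YF with hormone replicate 1 stood apart on the second principal component (12.6% of the variance), at 55.8 against 3.3 for its partner and -25.8 and -32.6 for the YF arrays without hormone. Of 9 measured fibroblast markers, 7 in EA cells and 8 in YF cells lay above the low group, and Col1a1, Col1a2, Col3a1 and Vim were at 14.32 or more on every array. The mean level of the 9 was 10.60 to 10.76 on EA arrays and 11.74 to 11.95 on YF arrays. By the brightest probe set 4 passed lower in EA and 0 higher, where 10.5% and 12.3% of all genes did. Col1a2, Col3a1, Pdgfra and Vim did not pass (-0.02 to 0.04), nor did Pdgfrb (0.28). The 4 lower ones were Thy1 (-4.96), Dcn (-4.45, low group in EA), Lum (-0.92, low group throughout) and Col1a1 (-0.24). Among these, Thy1, a surface marker of fibroblasts, averaged 7.60 and 7.64 in EA cells with and without hormone and 12.49 and 12.68 in YF cells with and without hormone.

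The promoters of the 3 members listed in the RefSeq table used here (build GRCm38.p6) are shown because these genes differed between EA and YF cells, Tbx4 and Tbx20 lower in EA and Tbx18 higher. Each window runs from 250 bases before to 50 bases after a start site, on the gene's own strand, and capitals mark matches to the GC box GGGCGG or the TATA motif TATAAA on either strand.

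Tbx4, chr11:85896515-85896814, plus strand: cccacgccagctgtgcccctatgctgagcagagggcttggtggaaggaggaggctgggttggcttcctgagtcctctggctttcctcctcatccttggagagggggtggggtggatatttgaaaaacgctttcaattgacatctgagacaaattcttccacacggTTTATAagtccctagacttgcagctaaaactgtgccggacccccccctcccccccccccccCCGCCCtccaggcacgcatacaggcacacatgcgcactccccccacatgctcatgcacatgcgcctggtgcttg

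Tbx20, chr9:24774254-24774553, minus strand: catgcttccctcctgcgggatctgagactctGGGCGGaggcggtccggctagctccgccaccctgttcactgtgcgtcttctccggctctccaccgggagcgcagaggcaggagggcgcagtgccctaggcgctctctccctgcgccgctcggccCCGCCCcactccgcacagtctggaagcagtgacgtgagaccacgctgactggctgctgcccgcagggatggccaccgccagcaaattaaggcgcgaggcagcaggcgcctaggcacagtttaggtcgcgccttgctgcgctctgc

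Tbx18, chr9:87731211-87731510, minus strand: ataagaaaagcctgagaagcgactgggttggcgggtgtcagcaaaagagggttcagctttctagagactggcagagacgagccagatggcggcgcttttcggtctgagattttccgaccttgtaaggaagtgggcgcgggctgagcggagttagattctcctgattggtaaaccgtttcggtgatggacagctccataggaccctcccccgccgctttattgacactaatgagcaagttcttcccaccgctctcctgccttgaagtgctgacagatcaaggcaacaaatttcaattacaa

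The Tbx20 window held 26 CpG pairs, the Tbx18 window 15 and the Tbx4 window 8, against a median of 7 over 32851 windows. The GC box was found 2 times for Tbx20, 1 time for Tbx4 and not for Tbx18, and 35.7% of all windows hold it. The TATA motif was found only in the Tbx4 window among these 3, on the opposite strand, and 13.6% of all windows hold it. None of the 3 windows held the STAT palindrome TTCNNNGAA (8.30% of all windows), the T-box motif GGTGTGA (3.98%) or TAATCC, the motif of bicoid-class homeodomains such as that of Pitx1 (7.06%). These are descriptions of the letters in these windows.

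In the average over treatments, Tbx4, Tbx20 and Tbx3 were lower in EA cells than in YF cells, and Tbx18, Tbx5 and Tbx15 were higher. In limma 5 of the 19 member probe sets passed higher in EA and 4 lower, where 8.17% and 8.38% of all probe sets passed in these directions. The median difference over the 19 was 0.02, against 0.021 over all probe sets. Among the 18193 genes, by the brightest probe set, Tbx4 stood at rank 2, Tbx20 at 158 and Tbx3 at 454 from the lowest difference, and Tbx18 stood at rank 199, Tbx5 at 302 and Tbx15 at 1150 from the highest. Of the 10 that did not pass, 9 had group means in the low group throughout, with array values of 1.78 to 3.09, and the other was the brightest Pitx1 probe set. Less RNA per cell and fewer cells with the RNA cannot be told apart in these bulk samples. Without hormone the count was 5 higher and 4 lower (5.51% and 5.25% of all), and with hormone it was 3 higher and 4 lower (4.37% and 5.80% of all). The count without hormone fell when either unstimulated EA array was left out. Calls over all probe sets fell too in these fits, which leave 1 array in that group. With YF with hormone replicate 1 left out, the average over treatments gave 5 higher and 6 lower.

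**Figure D1:**
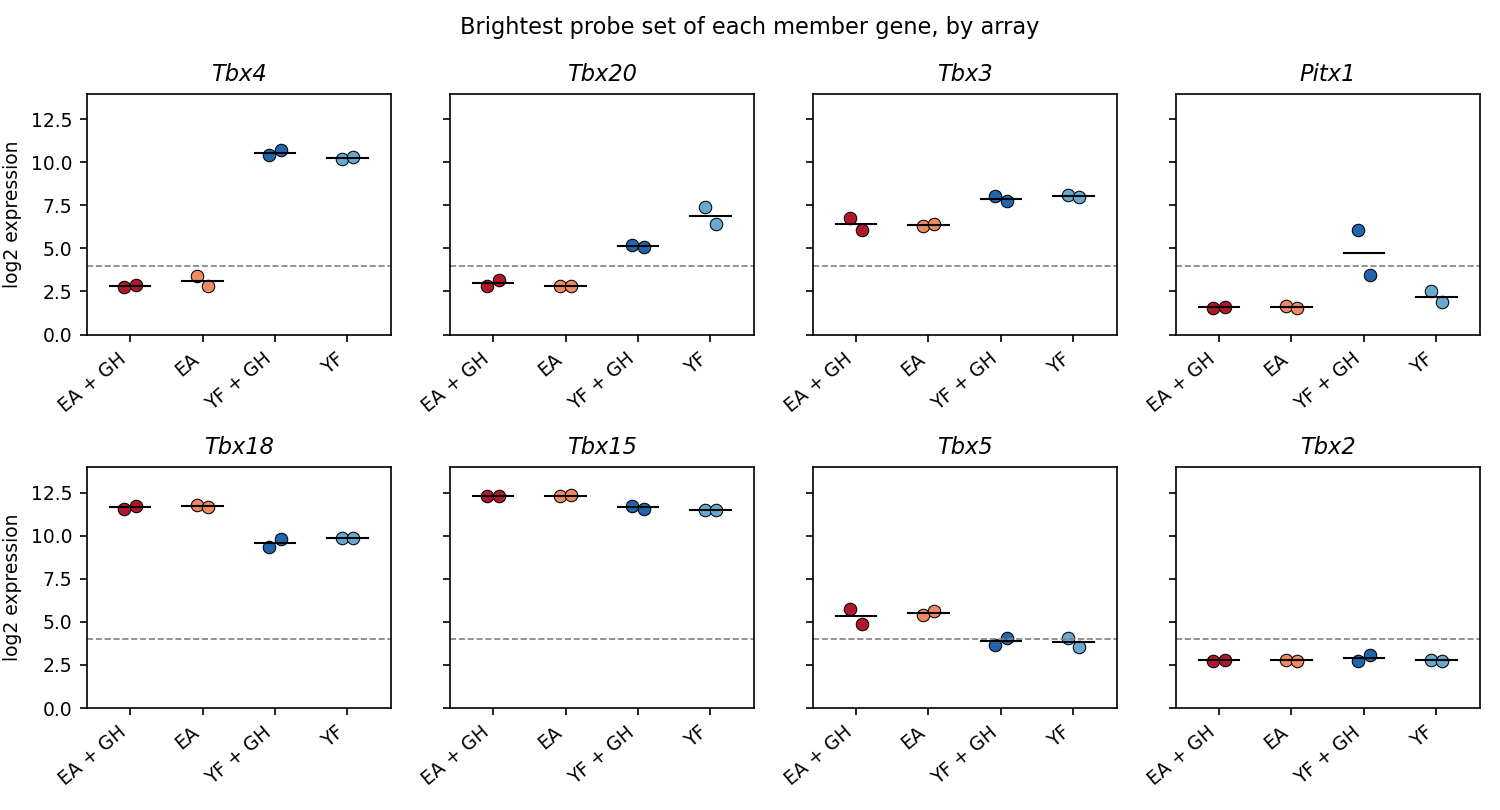
Log2 expression of the brightest probe set of each member gene on each of the 8 arrays (points), with the group mean as a bar and the bound of the low group at 4 as a dashed line. Tbx4 sits at 10.21 to 10.69 on the YF arrays and at 2.79 to 3.40 on the EA arrays, while Tbx18, Tbx15 and Tbx5 are higher on the EA arrays.

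Tbx4 showed the widest separation. It had 2.79 and 2.85 in EA cells with hormone, 3.40 and 2.82 in EA cells, 10.42 and 10.69 in YF cells with hormone and 10.21 and 10.33 in YF cells. All EA arrays lay in the low group, and all YF arrays lay far above it. Averaged over treatments the difference was -7.45 (SE 0.14, 4 arrays a side, adjusted p = 2.2e-05). The difference was -7.16 without hormone (SE 0.20, adjusted p = 0.00013) and -7.73 with hormone (SE 0.20, adjusted p = 0.00011). In order from the highest, the group means were 10.55 in YF with hormone, 10.27 in YF, 3.11 in EA and 2.82 in EA with hormone, and the hormone and unstimulated groups of the same mutant did not differ past the threshold. The second Tbx4 probe set stayed in the low group throughout, at 2.11 to 2.52, and the parts of the transcript they cover were not analysed here.

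Its linked neighbour Tbx2, a repressor, had no such difference. The only Tbx2 probe set read 2.76 and 2.79 in EA cells with hormone, 2.80 and 2.73 in EA cells, 2.71 and 3.09 in YF cells with hormone and 2.81 and 2.76 in YF cells. All groups overlapped inside the low group, and the average difference was -0.07 (95% interval -0.29 to 0.14, adjusted p = 0.71).

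Tbx3, the close relative of Tbx2 and also a repressor, was lower in EA cells. On its brightest probe set it had 6.75 and 6.09 in EA cells with hormone, 6.28 and 6.43 in EA cells, 8.03 and 7.74 in YF cells with hormone and 8.13 and 7.97 in YF cells. The lowest YF array was above the highest EA array, and all 8 lay above the low group. The average difference was -1.58 (SE 0.17, adjusted p = 0.0032), with -1.70 without hormone (SE 0.24, adjusted p = 0.013) and -1.46 with hormone (SE 0.24, adjusted p = 0.021). The call without hormone was lost when any of the 4 unstimulated arrays was left out (adjusted p = 0.057 to 0.072, differences of -1.78 to -1.62), and the call with hormone was lost without YF with hormone replicate 1 (-1.32, adjusted p = 0.085). A second probe set gave -1.72 on average (SE 0.10, adjusted p = 0.00059), from 4.72 to 5.03 on EA arrays and 6.53 to 6.79 on YF arrays. The remaining 3 Tbx3 probe sets lay in the low group. From the highest, the group means of the brightest probe set were 8.05 in YF, 7.88 in YF with hormone, 6.42 in EA with hormone and 6.35 in EA, and only the step between the mutants passed.

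Tbx5, the neighbour of Tbx3, went the opposite way. It had 5.77 and 4.88 in EA cells with hormone, 5.41 and 5.64 in EA cells, 3.68 and 4.05 in YF cells with hormone and 4.07 and 3.57 in YF cells. The EA arrays did not overlap with the YF arrays, whose group means of 3.87 with hormone and 3.82 without lay just inside the low group. The average difference was 1.58 (SE 0.24, adjusted p = 0.011). Without hormone it was 1.70 (SE 0.34, adjusted p = 0.039), a call that was lost without any 1 of the 4 unstimulated arrays (1.45 to 1.96, adjusted p = 0.088 to 0.17) or without either YF array with hormone (1.70, adjusted p = 0.056 each), and when the arrays were centred on their medians (1.73, adjusted p = 0.058). With hormone it was 1.46 and missed the threshold (SE 0.34, adjusted p = 0.063), and it passed when only probe sets with a mean of 4 or more were fitted (1.46, adjusted p = 0.021). The second Tbx5 probe set was in the low group on all arrays (1.93 to 2.07).

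Pitx1 was above the low group only on the brightest array of YF cells with hormone. Its values were 1.56 and 1.60 in EA cells with hormone, 1.63 and 1.57 in EA cells, 6.07 and 3.44 in YF cells with hormone and 2.51 and 1.88 in YF cells. Each YF array was above each EA array, but every value except 6.07 lay in the low group, where the size of a difference is uncertain. The 2 YF arrays with hormone differed by more than the replicates of any other group. The high mean of 4.76 (SD 1.86) therefore rests mainly on replicate 1, the array that stood apart. No Pitx1 comparison passed. The average EA minus YF difference was -1.89 (SE 0.59, adjusted p = 0.11), the difference with hormone was -3.18 (SE 0.83, 95% interval -5.29 to -1.07, adjusted p = 0.085) and the difference without hormone was -0.59 (SE 0.83, adjusted p = 0.88). Without YF with hormone replicate 1 the average difference was -1.23 and passed (SE 0.17, adjusted p = 0.015), and without replicate 2 it was -2.54 (SE 0.17, adjusted p = 0.0027). The difference with hormone also passed in these fits, at -1.87 without replicate 1 (adjusted p = 0.030) and -4.49 without replicate 2 (adjusted p = 0.0041). In both fits the remaining array stands alone for its group and is assumed to vary like the other groups. The second Pitx1 probe set read 1.79 to 1.89 on all arrays.

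Tbx18, known for the epicardium and for mesenchyme of the ureter, was higher in EA cells. Its brightest probe set had 11.55 and 11.74 in EA cells with hormone, 11.77 and 11.66 in EA cells, 9.33 and 9.84 in YF cells with hormone and 9.89 and 9.86 in YF cells. The EA arrays formed a narrow band above all YF arrays, and the lowest value was that of YF with hormone replicate 1. The average difference was 1.95 (SE 0.12, adjusted p = 0.00071), with 1.83 without hormone (SE 0.18, adjusted p = 0.0043) and 2.06 with hormone (SE 0.18, adjusted p = 0.0033). A second probe set gave 2.55 (SE 0.26, adjusted p = 0.0031), from 8.33 to 9.04 on EA arrays and 5.57 to 6.67 on YF arrays. Both are above the low group in all groups. The group means of the brightest probe set were 11.71 in EA, 11.65 in EA with hormone, 9.88 in YF and 9.59 in YF with hormone.

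Tbx15, which acts in skin patterning and skeletal growth, was also higher in EA cells, by a smaller amount. It had 12.32 and 12.31 in EA cells with hormone, 12.30 and 12.38 in EA cells, 11.76 and 11.58 in YF cells with hormone and 11.50 on both arrays of YF cells. The mutants did not overlap, and the group means were 12.34 in EA, 12.31 in EA with hormone, 11.67 in YF with hormone and 11.50 in YF. The average difference was 0.74 (SE 0.05, adjusted p = 0.00076), with 0.84 without hormone (SE 0.07, adjusted p = 0.0028) and 0.64 with hormone (SE 0.07, adjusted p = 0.0062). The second Tbx15 probe set gave 1.11 (SE 0.24, adjusted p = 0.033) and was less even among arrays. It read 7.60 and 7.04 in EA cells with hormone, 7.86 and 7.90 in EA cells, 7.32 and 6.40 in YF cells with hormone and 6.04 and 6.19 in YF cells. There YF with hormone replicate 1 lay above EA with hormone replicate 2. The call was lost without any 1 of the EA arrays or the unstimulated YF arrays (adjusted p = 0.059 to 0.11, differences of 0.97 to 1.25) and when arrays were centred on their medians (1.11, adjusted p = 0.052). It was kept without YF with hormone replicate 1 (1.34, adjusted p = 0.010) or 2 (0.88, adjusted p = 0.028).

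Tbx20, a factor of heart muscle and valves, was lower in EA cells. Its brightest probe set had 2.81 and 3.16 in EA cells with hormone, 2.80 and 2.82 in EA cells, 5.21 and 5.06 in YF cells with hormone and 7.38 and 6.43 in YF cells. All EA arrays were in the low group, and the YF arrays with hormone lay between them and the unstimulated YF arrays without overlap. From the highest, the group means were 6.90 in YF, 5.13 in YF with hormone, 2.98 in EA with hormone and 2.81 in EA. The EA minus YF difference was -3.12 on average (SE 0.22, adjusted p = 0.0010), -4.09 without hormone (SE 0.32, adjusted p = 0.0024) and -2.15 with hormone (SE 0.32, adjusted p = 0.016). The call with hormone was lost without EA with hormone replicate 1 (-1.97, adjusted p = 0.070) or 2 (-2.33, adjusted p = 0.071), or without YF with hormone replicate 1 (-2.07, adjusted p = 0.069). The other 2 Tbx20 probe sets lay at 2.06 to 2.38 on all arrays. Of the markers fixed for heart muscle, 7 of 8 were in the low group in all groups, among them Myh6 (2.15 to 2.29) and Nkx2-5 (1.81 to 1.89), and Tnnt2 was higher in EA (1.35, SE 0.22, adjusted p = 0.014).

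**Figure D2:**
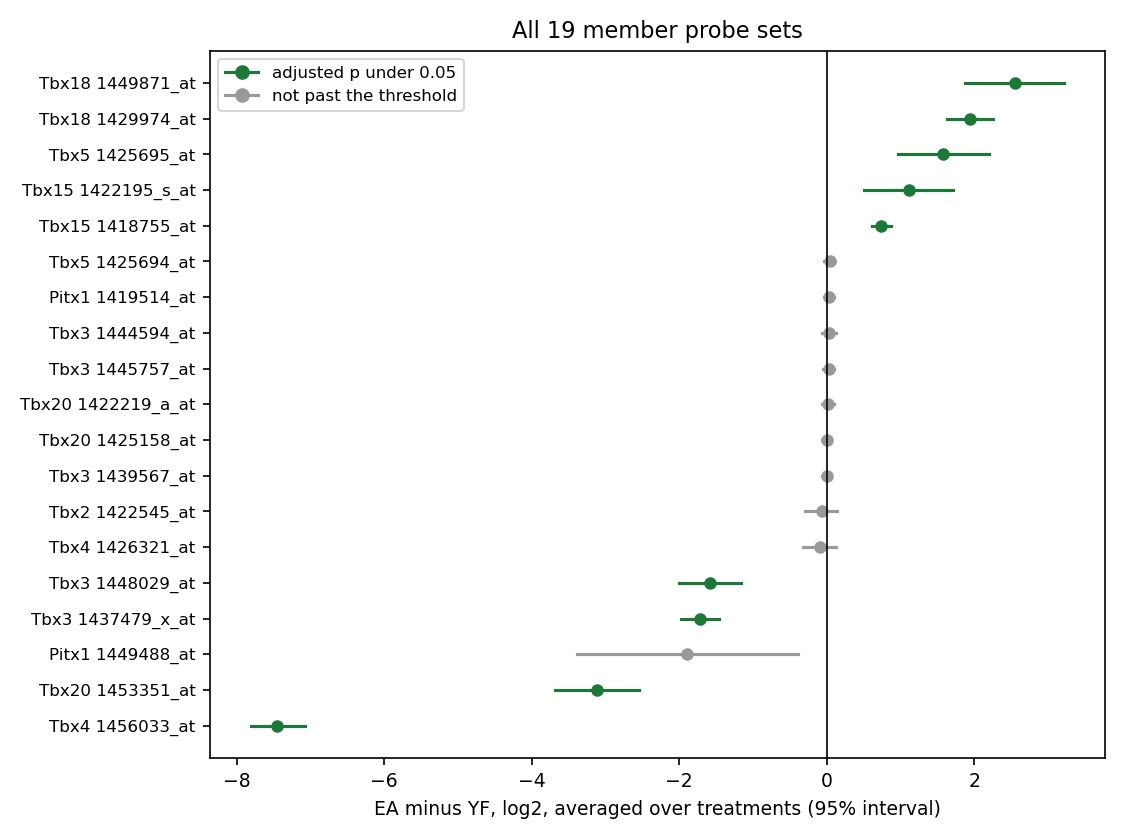
EA minus YF difference on the log2 scale, averaged over treatments, with its 95% interval for each of the 19 member probe sets, labelled by gene and probe set. The 9 that passed (green) run from -7.45 for Tbx4 to 2.55 for Tbx18, and most of the others (grey) lie near 0.

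Growth hormone gave no passing change in any member in limma. In EA cells 0 of 19 probe sets passed (0.135% of all probe sets did, in either direction), and 0 had an unadjusted p under 0.05. Over the 8 brightest probe sets the EA differences, hormone minus none, ran from -0.29 to 0.17. In YF cells 0 of 19 passed (0.180% of all), and at an unadjusted p under 0.05 the brightest Pitx1 probe set was higher and the brightest Tbx20 probe set lower.

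The Tbx20 value in YF cells was -1.77 (SE 0.32, 95% interval -2.57 to -0.97, adjusted p = 0.18), with 5.21 and 5.06 on the arrays with hormone and 7.38 and 6.43 on those without. It was -1.85 without YF with hormone replicate 1 and ran from -2.25 to -1.30 over all alternatives, none of which passed. For Pitx1 it was 2.57 (SE 0.83, 95% interval 0.46 to 4.68, adjusted p = 0.36), and it was 1.25 without YF with hormone replicate 1. It was 3.88 and passed without YF with hormone replicate 2 (adjusted p = 0.018), when the array that stood apart was alone in its group. For Tbx4 the value was 0.28 (95% interval -0.24 to 0.80), for Tbx15 0.17 (-0.00 to 0.35), for Tbx3 -0.17 (-0.77 to 0.43), for Tbx5 0.05 (-0.82 to 0.92) and for Tbx18 -0.29 (-0.73 to 0.15). Without YF with hormone replicate 1 these were 0.42 for Tbx4, 0.08 for Tbx15, -0.32 for Tbx3 and -0.03 for Tbx18, each with an adjusted p of 0.95. For Tbx18 the value was -0.55 without replicate 2 (adjusted p = 0.092).

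The test of the difference between the 2 hormone responses, EA minus YF, also passed for 0 of 19 (0.0200% of all probe sets passed, in either direction). At an unadjusted p under 0.05 it gave 1 probe set above 0, the brightest of Tbx20, and 1 below, the second of Tbx15. Tbx20 had 1.94 (SE 0.45, 95% interval 0.81 to 3.08, adjusted p = 0.35) and Pitx1 -2.58 (SE 1.18, 95% interval -5.57 to 0.40, adjusted p = 0.45). The Pitx1 difference was -1.27 without YF with hormone replicate 1 (adjusted p = 0.51), and -3.90 and past the threshold without replicate 2 (adjusted p = 0.048). Tbx4 had -0.57 (95% interval -1.30 to 0.16) and Tbx15 -0.20 (-0.45 to 0.04), with -0.71 and -0.11 for these genes without YF with hormone replicate 1.

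**Figure D3:**
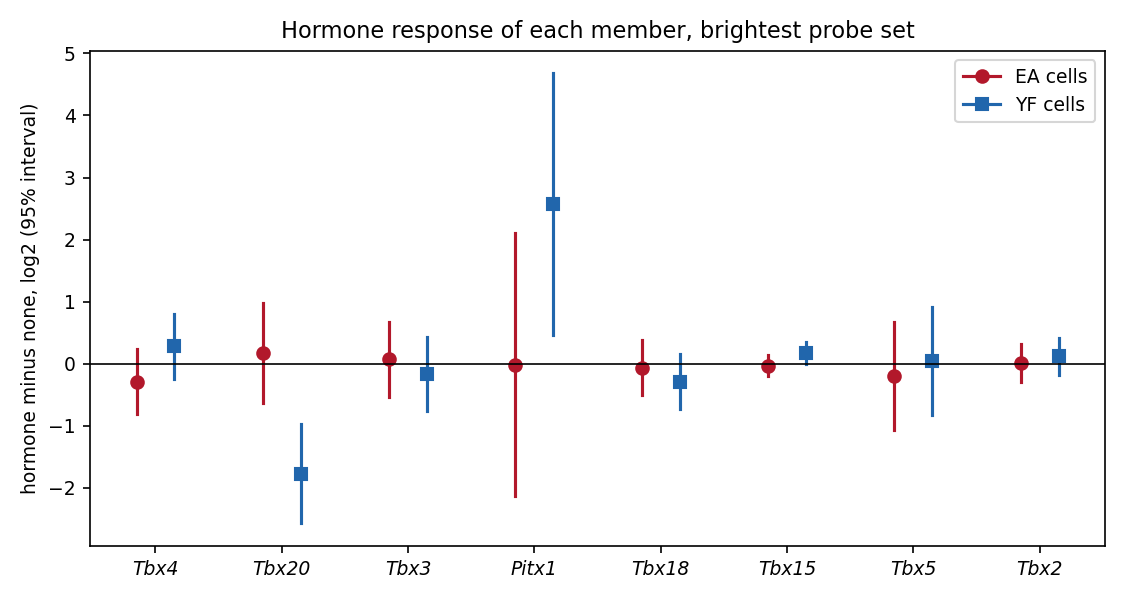
Growth hormone minus none on the log2 scale for the brightest probe set of each member, with 95% intervals, in EA cells (circles) and YF cells (squares). The YF values for Tbx20 (-1.77) and Pitx1 (2.57) lie farthest from 0, and none of the 16 passed after adjustment.

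Other genes of these families were mostly in the low group. Of 8 further T-box genes measured, 2 had a group mean above it, Mga at 11.23 to 11.51 and Eomes at 4.29 in YF cells, and 0 passed in the EA against YF average, with a median of 0.03. The 6 measured relatives of Pitx1, among them Pitx3, Otx1 and Otx2, were all in the low group. These counts are on the brightest probe set of each gene, a scale on which 12.3% of all 18193 genes passed higher and 10.5% lower, with a median of 0.023.

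Genes of limb bud patterning were mostly lower in EA cells where they passed. Of 27 measured, 3 passed higher and 11 lower, with a median of -0.13, where 12.3% of all genes passed higher and 10.5% lower. The 3 higher ones were Irx3 (1.56, SE 0.13), Irx5 (1.20, SE 0.14) and Fgfr2 (0.24, SE 0.05). Sall1, a zinc-finger gene of limb and kidney, averaged 2.66 in EA and 8.32 in YF cells (-5.66, SE 0.08, adjusted p = 9.1e-06). Shox2, a homeobox gene of the proximal limb, averaged 3.44 in EA and 7.62 in YF cells (-4.18, SE 0.24, adjusted p = 0.00053). Lhx2, expressed in distal limb mesenchyme, averaged 2.86 in EA and 6.84 in YF cells (-3.98, SE 0.05, adjusted p = 8.9e-06). Msx1, a BMP-responsive homeobox gene, averaged 7.65 in EA and 10.10 in YF cells (-2.45, SE 0.06, adjusted p = 3.9e-05). The EA means of Sall1, Shox2 and Lhx2 lay in the low group. Prrx1, a marker of limb mesenchyme, had 13.54 to 13.63 in the group means (-0.01, adjusted p = 0.89), and Fgf10, a target of Tbx4 and Tbx5 in the limb and lung, stayed at 2.60 to 2.66 in all groups.

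Of 14 measured 5′ Hox genes, 4 passed higher in EA and 2 lower, with a median of -0.02. Hoxb9 averaged 3.21 in EA cells, in the low group, and 7.65 in YF cells (-4.44, SE 0.34, adjusted p = 0.0013). Hoxa11 (1.26, SE 0.10), Hoxd9 (0.88, SE 0.06) and Hoxa9 (0.67, SE 0.07) were higher in EA. For comparison with each list of this paragraph, 12.3% of all genes passed higher and 10.5% lower. Among genes reported as T-box or Pitx1 targets, a list that also holds the members Tbx2 and Tbx4, 0 of 16 passed higher and 3 lower, with a median of -0.01. The lower ones were Tbx4 itself, Mycn (-0.76, SE 0.03) and Cdkn2b (-0.27, SE 0.03). Cdkn2a, a senescence gene that Tbx2 and Tbx3 are known to repress, had 0.70 (SE 0.22, adjusted p = 0.11). Of 14 T-box partner genes, 2 passed higher and 3 lower (median 0.02), and Tle2, a corepressor gene, was 1.53 higher in EA (SE 0.17, adjusted p = 0.0035). The T-box coactivators Wwtr1 (-0.33, SE 0.04) and Yap1 (-0.21, SE 0.04) were slightly lower.

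The list of BMP, TGF-beta and retinoid genes held signals known to act upstream of these factors in the embryo, and also BMP targets such as Id2. Of its 21 genes, 2 passed higher in EA and 11 lower, with a median of -0.20. By the brightest probe set, 12.3% of all genes passed higher and 10.5% lower. The part of these genes in the member differences was not tested. Bmp2, a ligand known to induce Tbx2 and Tbx3, averaged 3.98 in EA and 9.26 in YF cells (-5.28, SE 0.19, adjusted p = 0.00012). Cyp26b1, which degrades retinoic acid, averaged 2.97 in EA cells, in the low group, and 6.23 in YF cells (-3.26, SE 0.26, adjusted p = 0.0014). Id2, a BMP target, had -2.01 (SE 0.15, adjusted p = 0.0011). Crabp1, a retinoic acid binding protein, averaged 8.74 and 9.27 in EA cells with and without hormone. In YF cells it averaged 3.46 and 3.73, in the low group (5.41, SE 0.32, adjusted p = 0.00057). In YF cells, 1 gene of the 7 lists passed for hormone, Egr1, an immediate early factor (-1.01, adjusted p = 0.026). None passed in EA cells, where Egr1 had -0.52 (adjusted p = 0.15). Over all probe sets, 0.180% passed for hormone in YF cells and 0.135% in EA cells. No gene of the lists passed for the difference of the responses.

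The genes whose profile over the 8 arrays lay nearest to a member were found by the root mean square (RMS) distance between centred log2 profiles. For Tbx4 they were Hoxb5os (0.33), Pax1, a paired-box gene (0.35), and Plac8 (0.40), all in the low group in EA cells. For Tbx18 they were Sema5a (0.088), Dapp1 (0.15) and Nid2 (0.17). For Tbx20 they were Npy1r (0.39), Zfp105 (0.40) and Ica1l (0.40), and for Tbx3 they were Slfn9, Pde1a and Cep295nl (0.18 each). Amz2 (0.069), Nt5c3 (0.071) and Pik3ip1 (0.073) were nearest to Tbx15, and Apoa2 (0.18), C87436 (0.21) and Gm20559 (0.21) to Tbx5. Pitx1 had no gene closer than Acp5 (0.66), followed by Mpp2 (0.73) and 8430436N08Rik (0.76).

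The genes next to the members on the chromosome were looked up in the RefSeq order of GRCm38.p6, a choice made after values were seen. Of the 24 other protein-coding genes within 2 places of a member, 2 passed higher in EA and 2 lower, with a median difference of 0.04. Over all 18193 genes, by the brightest probe set, 12.3% passed higher and 10.5% lower, so the neighbours did not pass more often than other genes. The lower ones were Brip1, beside Tbx4 (-0.66, SE 0.09, adjusted p = 0.0067), and Nt5e, beside Tbx18 (-0.99, SE 0.14, adjusted p = 0.0077). The higher ones, Med13l (0.28, SE 0.05) and Rbm19 (0.38, SE 0.07), flank the pair of Tbx3 and Tbx5. Bcas3, on the other side of Tbx2, had -0.20 (SE 0.15, adjusted p = 0.58).

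Markers of other cell types moved with the mutants in part. Of 6 epicardial or mesothelial markers, Msln was higher in EA cells (8.27 with and 8.01 without hormone in EA, 2.27 and 2.26 in YF) and Wt1 lower (2.50 and 2.46 in EA, 7.33 and 8.21 in YF). The other 4 had low-group means throughout, and the mean level of the 6 was 3.34 to 3.44 on EA arrays and 3.08 to 3.46 on YF arrays. Of 5 leukocyte markers, Cd68 and Csf1r lay above the low group and Cd68 was higher in EA (3.15, SE 0.15), while Ptprc, the pan-leukocyte marker, stayed at 2.41 to 2.58. The mean level of the 5 was 5.27 to 5.42 on EA arrays and 4.63 to 4.91 on YF arrays. Of 6 skeletal muscle markers, 5 lay in the low group and Acta1 was lower in EA. Of 5 endothelial markers, 4 lay there and Tek was lower in EA. All 5 epithelial markers lay there, with Krt18 higher in EA inside it (0.39, SE 0.09). Of 5 neural markers, Nes was higher in EA (1.37, SE 0.15) and Sox2 lower (-1.47, SE 0.13). Tubb3 was also lower (-1.45, SE 0.17), with all group means inside the low group (1.70 to 3.94). Map2 did not pass (-0.33, SE 0.09, adjusted p = 0.074), and Sox10 stayed at 2.16 to 2.25. The part of these genes in the member differences was not tested.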

How the data were processed

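RNA from 8 samples was measured on biotin-labelled Affymetrix arrays, and the authors deposited log2 expression values per probe set. Per the submitters' processing notes GCOS and RMA were used; no order, settings or versions are recorded there. The deposited columns had medians of 2.854 and 2.943 (EA with hormone), 2.874 and 2.847 (EA), 2.862 and 2.869 (YF with hormone) and 2.899 and 2.863 (YF). These medians lie in the low group and do not show how higher values align. The upper quartiles ran from 9.038 (EA with hormone replicate 2) to 9.138 (YF with hormone replicate 1). No further normalization was applied. The scale inside the low group stays unknown. The number of arrays limits precision, and no detection calls were used.

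The 64 control probe sets were left out. Symbols came from the platform annotation (34945 probe sets with 1 symbol, 932 with several and 9160 with none listed), and the gene identifiers of all 19 member probe sets matched RefSeq. limma 3.58.1 in R 4.3.3 fitted 4 group means over all 8 arrays (lmFit and eBayes, 4 residual and 1.26 prior degrees of freedom), with two-sided tests adjusted over 45037 probe sets. Alternatives were quantile normalization, centring arrays on their medians, probe sets with a mean of 4 or more alone, an intensity trend in eBayes, the arrays of the compared groups alone, the replicate number as a block, and leaving out each array in turn. The code was tested on simulated data first. Related genes, markers and nearest profiles were named by a rule: up to 4 passing genes with the largest difference in each list, and 3 nearest profiles per member. Outside this rule, and with values known, Fgf10, Prrx1, Irx3, Irx5, Fgfr2, Mga, Eomes, Cdkn2a, the relatives of Pitx1 and single markers were named. Members, lists and tests were chosen with earlier results of these data known.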

Additional observations from a re-analysis of the deposited data

Results flagged for a closer look

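The second Tbx15 probe set had hormone differences of opposite sign in the mutants, with no overlap between hormone and unstimulated arrays in either. With so few arrays per group, such a lack of overlap can arise by chance, and its share over all probe sets was not counted. The hormone difference was -0.56 in EA cells (adjusted p = 0.87) and 0.74 in YF cells (adjusted p = 0.49), and neither passed in limma. The YF value leaned on YF with hormone replicate 1, the array that stood apart. That array read 7.32, against 6.4 for its partner and 6.04 and 6.19 on the YF arrays without hormone. The difference of the responses, EA minus YF, was -1.30 (SE 0.47, adjusted p = 0.45) and did not pass. The brightest Tbx15 probe set gave -0.20 (SE 0.10, adjusted p = 0.45).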

How the results depend on the processing

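Over 34 member differences and their 491 alternative fits, 455 kept their side of the threshold, 25 lost it and 11 gained it. Of the 34, 23 differences kept it in all of theirs. Among the fits 0 changed sign, but many leave the difference unchanged by design and could not change it. The 34 include differences that did not pass in the main fit. They hold no hormone response in EA cells and no Tbx2 difference. The average over treatments gave 9 passing member probe sets, and 8 to 11 when 1 array was left out. Without hormone the count was 9, and 5 to 8 with 1 array left out. The lowest count came without either unstimulated EA array. For the EA against YF comparisons, calls over all probe sets also fell in most fits with 1 array left out. With hormone it was 7, and 6 to 9 with 1 array left out, and it was 4 in a fit of those 4 arrays alone, which has fewer arrays to estimate the spread; there the brightest probe sets of Tbx3 (adjusted p = 0.097) and Tbx15 (0.053) and the second of Tbx18 lost their calls. Over all probe sets, calls with hormone fell from 4579 to 2381 in the fit of those 4 arrays alone. The fit of probe sets with a mean of 4 or more held no Pitx1 or Tbx2 probe set. For the hormone response the counts with 1 array left out were 0 in EA cells and 0 to 1 in YF cells, and they were 0 to 1 for the difference of the responses; each 1 was Pitx1 without YF with hormone replicate 2. An intensity trend in the prior let Pitx1 pass on average (adjusted p = 0.033) and with hormone (0.024), and Tbx5 with hormone (0.039).

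Whether the replicate numbers pair the arrays is not settled by these values. The replicate differences of 2 groups correlated at -0.303 to 0.367, and the highest was between the groups with hormone. With the replicate block the counts were 9 on average, 8 without hormone, where Tbx5 lost its call (adjusted p = 0.064), 7 with hormone and 0 for each hormone response and for their difference. Crossing the EA numbers in that block, chosen after seeing the data, gave counts of 9, 9, 7, 0, 0 and 0 in the same order.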
